A study of Solanum lycopersicum var. cerasiforme with 6 samples.

Results

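E4 (Solyc03g111720.2), E8 (Solyc09g089580.2) and LeE8-6 (Solyc03g095900.2) are 3 tomato genes of the fruit ripening programme, and they were taken by their gene identifiers from a table of 31571 entries, of which 24556 name a single annotated gene. All 3 were found, each in a single entry of its own. The name LeE8-6 follows the usage of the study, and the deposited annotation calls both E8 genes 2-oxoglutarate (2OG) and Fe(II)-dependent oxygenases. In the RefSeq names for assembly SLM_r2.1, the symbol MSRA carries the synonym E4, while the symbol E8 carries the synonym E8-6 and belongs to a gene on chromosome 3, so that E8 in RefSeq and E8 here are different genes. E8 stands for the chromosome 9 gene throughout.

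The fruits were mature green cherry tomatoes, Solanum lycopersicum var. cerasiforme 'XinTaiyang', which were injected with 25 μL of 10 mM ABA, of 1 mM NDGA or of distilled water (CK) and sampled at day 9. ABA (abscisic acid) is a plant hormone that rises in ripening tomato, and NDGA (nordihydroguaiaretic acid) is an inhibitor of ABA synthesis. Each group had 2 libraries of poly(A) RNA from pericarp without seeds, each made from several pooled fruits, and the 2 came from harvests in successive weeks. The deposited values are the authors' means of both libraries in FPKM (fragments per kilobase of transcript and per mapped fragment total), a level that is scaled to transcript length and library size, with 1 value per entry and group. No spread between libraries or fragment number accompanies them, so no difference given here could be set against replicate error, tested or called significant, and CK enters both treatment comparisons. In such bulk tissue, fewer cells of a type and less RNA per cell cannot be told apart.

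E4 and E8 were among the first tomato genes isolated as ethylene-induced messages of ripening fruit, and the E8 promoter is widely used to drive transgenes in ripening tomato. E4 encodes a peptide methionine sulfoxide reductase, an enzyme that repairs oxidised methionine in proteins. E8 belongs to the 2OG oxygenases, as does ACC oxidase, the last enzyme of ethylene synthesis, and tomato fruits with reduced E8 are known to make more ethylene.

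E4 and LeE8-6 were higher with ABA and lower with NDGA than in CK, whereas E8 was lower with NDGA and was listed at 0 with ABA. E4, on chromosome 3 from 56431488 to 56434422 of genome build SL2.40, had 11052 FPKM with ABA, 2149 FPKM with NDGA and 7288 FPKM in CK. Its level was thus 1.52-fold higher with ABA than in CK (log2 ratio 0.60) and 3.39-fold lower with NDGA than in CK (log2 ratio -1.76). Between both treatments, E4 was 5.14-fold higher with ABA than with NDGA (log2 ratio 2.36). LeE8-6 lies on the same chromosome, from 51028611 to 51030467, and had the same order of groups at a lower level. It reached 3295 FPKM with ABA, 549 FPKM with NDGA and 1809.5 FPKM in CK. These values were 1.82-fold higher with ABA than in CK (log2 ratio 0.86), 3.29-fold lower with NDGA than in CK (log2 ratio -1.72) and 6.0-fold higher with ABA than with NDGA (log2 ratio 2.58). E8 lies on chromosome 9 from 64646855 to 64649117. It was listed at 0 with ABA and had 7166 FPKM with NDGA and 11339 FPKM in CK. E8 was therefore 1.58-fold lower with NDGA than in CK (log2 ratio -0.66), a smaller difference than that of E4 or LeE8-6, and no ratio was formed with the ABA value.

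**Figure D1:**
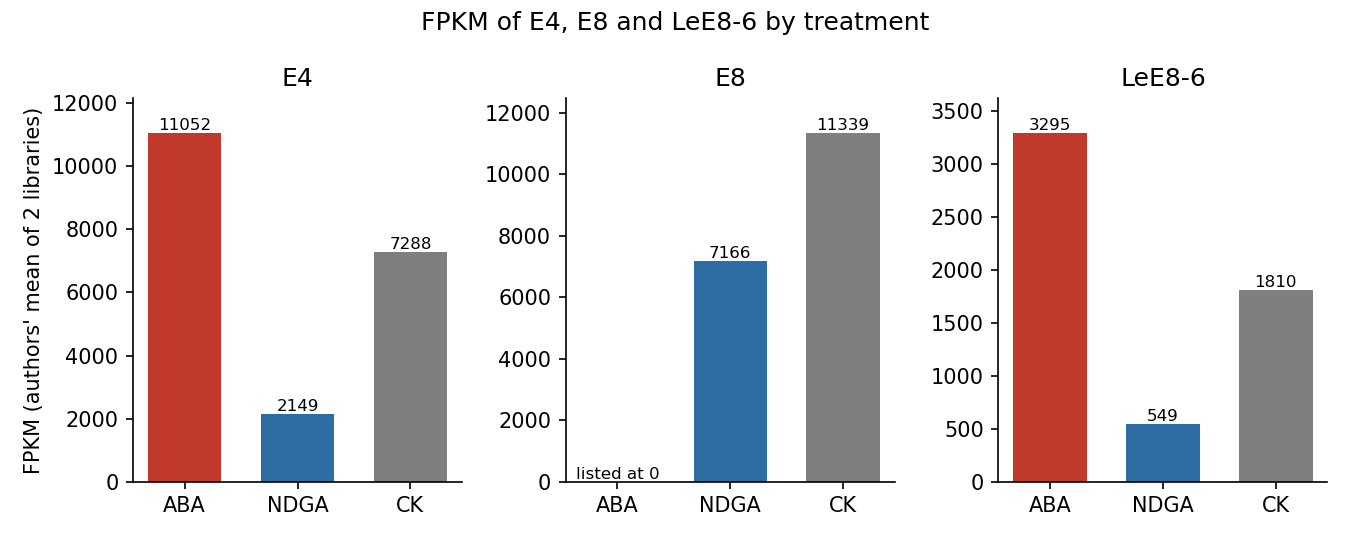
Level of E4, E8 and LeE8-6 in FPKM (vertical axes, each from 0 and with its own range) in fruits treated with ABA, NDGA or water (CK). Each bar is the authors' mean of 2 libraries, without an error bar because the files give none. E4 and LeE8-6 stand highest with ABA (11052 and 3295 FPKM) and lowest with NDGA (2149 and 549 FPKM), and E8 is listed at 0 with ABA beside 7166 FPKM with NDGA and 11339 FPKM in CK.

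Read against all entries, the 2 members with a ratio were not among those past a 2-fold difference with ABA, but 2 of 3 were past it with NDGA. Of the entries above 0 in both groups and with a mean of at least 1 FPKM over the 3 groups, 6.70% were at least 2-fold higher with ABA than in CK, and 0 of the 2 members with a ratio were. At least 2-fold lower with NDGA than in CK were 4.13% of all entries, and 2 of the 3 members (E4 and LeE8-6). At least 2-fold higher with ABA than with NDGA were 8.31% of all entries, and both members with a ratio. The members are abundant messages, so they were also set beside the single-gene entries with a mean of at least 500 FPKM, a level chosen after the values had been seen. Among these, 15.6% were at least 2-fold lower with NDGA than in CK, a larger share than the 4.13% of all entries. Of these 270 entries, 14 had a lower NDGA over CK ratio than E4, 17 a lower one than LeE8-6 and 67 a lower one than E8. At least 2-fold higher with ABA than in CK were 10.2% of them, and 63 of 266 had a higher ratio than E4 and 39 a higher one than LeE8-6. At least 2-fold higher with ABA than with NDGA were 24.8% of them, and 15 of 266 exceeded E4 and 11 exceeded LeE8-6 in this ratio, so both stood nearer the upper end between the treatments than they did with ABA over CK.

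The scaling of the libraries bears on these values. The median log2 ratio of all entries was 0.04 for ABA over CK, 0.03 for NDGA over CK and -0.01 for ABA over NDGA, and setting it to 0 changed no direction of a member. The sums of FPKM over entries above 0 in all 3 groups differed more, and their 10 highest entries held 57.7% of it with ABA, 61.0% with NDGA and 70.9% in CK. Rescaling to the same sum adds 0.81 to every log2 ratio of ABA over CK, 0.45 to those of NDGA over CK and 0.36 to those of ABA over NDGA. E4 then came to 1.42 with ABA and -1.31 with NDGA over CK, LeE8-6 to 1.68 and -1.27, and E8 to -0.21 with NDGA. The members kept their directions under both scalings, while E4 and LeE8-6 passed 2-fold with ABA only after the sums had been made equal. Equal sums also raised entries annotated with the words ubiquitin, actin, elongation factor, GAPDH or tubulin. With ABA, 260 of 286 of them then lay above CK (median log2 ratio 0.90), against 175 as deposited (0.09). With NDGA, 272 of 288 did (0.42), against 126 as deposited (-0.04).

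In rank, the members were among the most abundant messages of the pericarp in every group except for E8 with ABA. With ABA, 32 of the 24556 single-gene entries had a higher FPKM than E4, against 39 in CK, while 81 did so with NDGA. For LeE8-6 the numbers were 59 with ABA, 249 with NDGA and 80 in CK, which is the widest shift in rank of the 3 among groups with a value above 0. E8 was exceeded by 41 entries with NDGA and by 33 in CK. The level of E4 was 3.35 times that of LeE8-6 with ABA, 3.91 times with NDGA and 4.03 times in CK, so this proportion varied little across the groups. The proportions of E8 varied more, since it stood at 3.33 times the level of E4 with NDGA, against 1.56 times in CK, and at 13.0 times the level of LeE8-6 with NDGA, against 6.27 times in CK.

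The 0 of E8 with ABA was not the only such value among genes of this level. Of the 105 single-gene entries with at least 1000 FPKM in both NDGA and CK, 5 (4.76%) were listed at 0 with ABA. At 10 to 100 FPKM in the lower of both other groups, 20 of 8123 entries (0.246%) were, so that the share was larger among the most abundant entries than at moderate levels. The same was seen with NDGA, where 2 of 100 entries at 1000 FPKM or more were listed at 0 (2.00%), against 0.0895% at 10 to 100 FPKM, while in CK it was 0 of 90, against 0.141%. The other 4 of these 5 entries were PG2a (Solyc10g080210.1), the polygalacturonase that degrades pectin in the ripening cell wall, protodermal factor 1 (Solyc12g011010.1), a SIN3-like gene (Solyc02g087390.1) and Solyc11g027710.1, which has no annotation. PG2a was listed at 0 with ABA and had 2309 FPKM with NDGA and 10575 FPKM in CK. The SIN3-like gene, named for a co-repressor of transcription, was listed at 0 with ABA and had 2835 FPKM with NDGA and 2574 FPKM in CK. Among 34 single-gene entries with a CK level at or above that of E8, 3 were listed at 0 with ABA. Of 342 entries annotated with the words ubiquitin, actin, elongation factor, GAPDH or tubulin, 8 were listed at 0 with ABA alone, 0 with NDGA alone and 5 in CK alone. The list also takes in enzymes such as ubiquitin-specific proteases, so not all are genes that every cell uses. The highest of the 8 had 7.25 FPKM in another group. Whether E8 was not transcribed with ABA or was given no estimate cannot be told apart from these files.

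**Figure D2:**
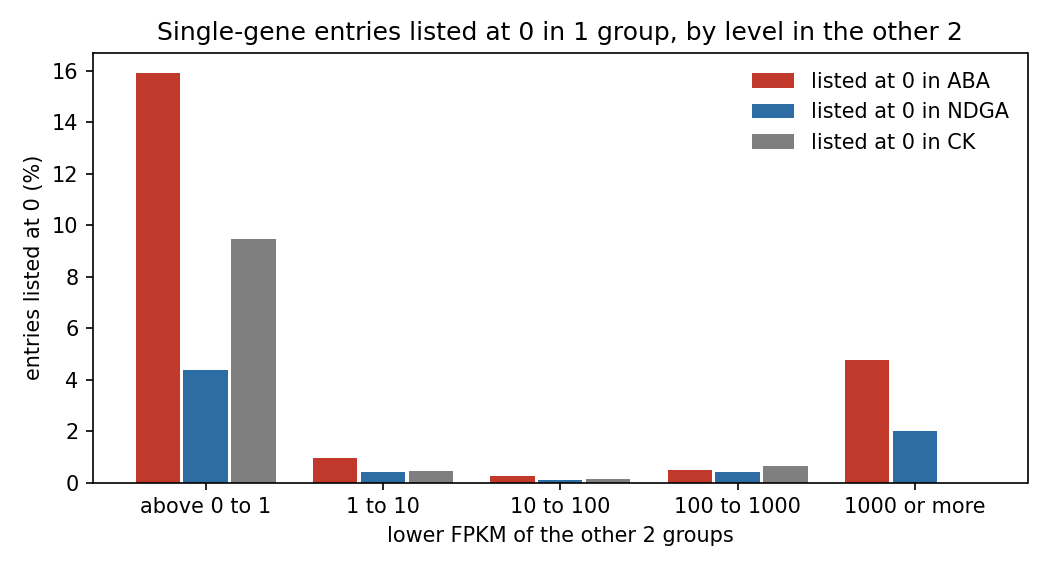
Share of single-gene entries listed at 0 in one group (vertical axis, %), by the lower FPKM of the other 2 groups (horizontal axis), for ABA, NDGA and CK. The share falls to 0.246% (ABA), 0.0895% (NDGA) and 0.141% (CK) at 10 to 100 FPKM and stands at 4.76% with ABA, 2.00% with NDGA and 0% in CK at 1000 FPKM or more, the class that holds E8.

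Some of the sequence around E8 that the annotation does not assign to a gene was also expressed. About 4.5 kb beyond the end of the E8 locus, at chr9:64653656-64654358, 2 unannotated entries had 206 and 234 FPKM with ABA, 50.3 and 56.6 FPKM with NDGA, and 110 and 121 FPKM in CK. Their log2 ratios were 0.91 and 0.96 for ABA over CK and -1.13 and -1.09 for NDGA over CK, which put them on the same sides of CK as E4 and LeE8-6. On the other side of E8, 2.2 kb away at chr9:64641127-64644696, 3 entries with a mean of at least 1 FPKM had 2.07, 3.46 and 2.37 FPKM with ABA, 0.176, 0.185 and 0.128 FPKM with NDGA, and 0.805, 0.886 and 1.01 FPKM in CK. All 5 entries, which lie at only 2 positions, were higher with ABA and lower with NDGA than in CK under each scaling. As deposited, the median log2 ratios of the 5 were 1.23 with ABA and -2.19 with NDGA, against 0.04 and 0.03 over all entries. A further entry at the second position, below that mean, had 1.09 FPKM with ABA, was listed at 0 with NDGA and had 0.630 FPKM in CK. The unannotated entry nearest to E8, 0.2 kb away and also below that mean, had 0.756 FPKM with ABA, 0.353 FPKM with NDGA and 0.526 FPKM in CK. An unannotated entry 14.7 kb from E8 was nearly level, with 28.7 FPKM with ABA, 31.0 FPKM with NDGA and 29.6 FPKM in CK. Whether these unannotated entries belong to the E8 transcript was not tested. Near LeE8-6, Solyc03g095880.1, a gene without annotation 20.0 kb away, was in 2 entries with 22.6 and 26.9 FPKM with ABA, 1.78 and 2.05 FPKM with NDGA, and 10.0 and 11.0 FPKM in CK. Its NDGA over CK log2 ratios, -2.49 and -2.42, were lower than that of LeE8-6. The locus of E4 holds a second entry, the cysteine proteinase Solyc03g111730.2, which went another way, with 140 FPKM with ABA, 196 FPKM with NDGA and 111 FPKM in CK.

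Other 2OG oxygenase genes near E8 had low levels and another pattern. Within 200 kb of E8 there were 8 entries of the family, all between 138.8 and 170.7 kb away and with at most 35.2 FPKM in any group, and 4 of them had a mean of at least 1 FPKM. Of these 4, 3 were at least 2-fold lower with ABA than in CK, against 10.5% of all entries, and 2 were at least 2-fold higher with NDGA, against 8.79%. After rescaling to equal sums the counts were 1 and 3 of 4, for which no share of all entries was counted. The locus of Solyc09g089740.2 and Solyc09g089750.1, which shares 1 value between both genes, had 3.51 FPKM with ABA, 35.2 FPKM with NDGA and 5.64 FPKM in CK. Solyc09g089820.1 had 1.12 FPKM with ABA, 5.28 FPKM with NDGA and 2.47 FPKM in CK. All 4 lay below CK with ABA and above it with NDGA, which is the reverse of LeE8-6, except that 1 of the 4 came above CK with ABA when the sums were made equal. Neighbouring copies can share reads, so their single values are uncertain. No other family entry lay within 200 kb of LeE8-6.

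**Figure D3:**
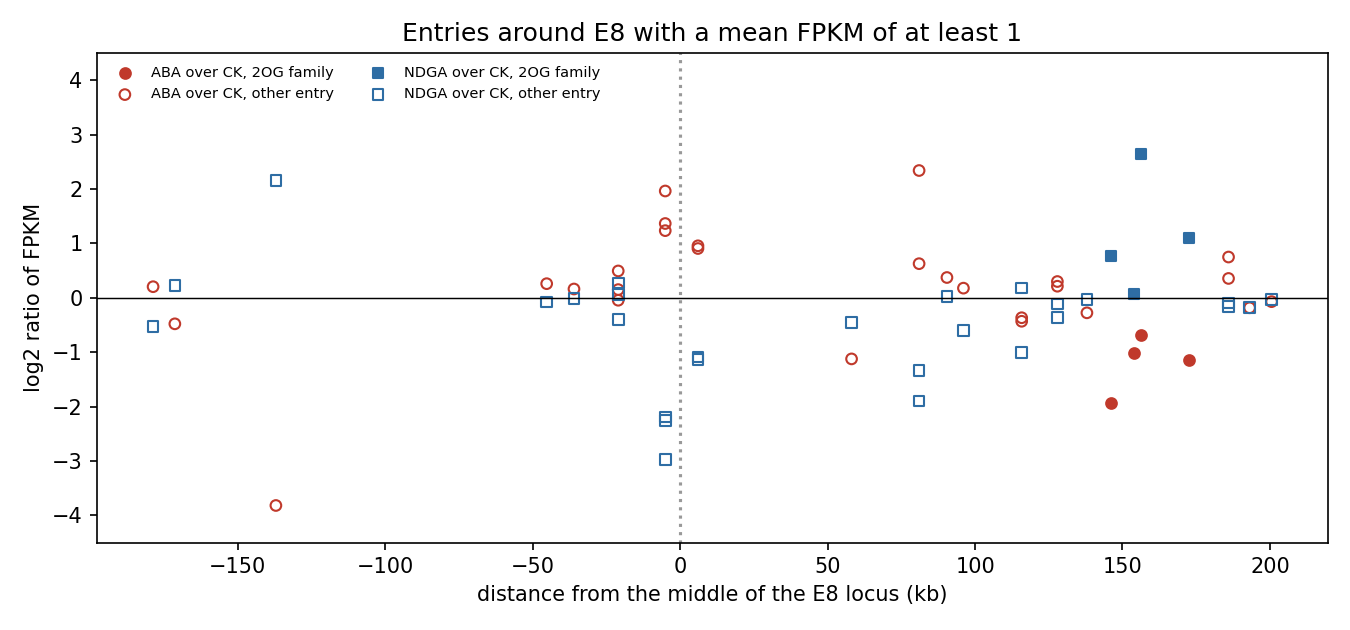
Log2 ratio of FPKM to CK (vertical axis) for ABA (red circles) and NDGA (blue squares) of entries with a mean of at least 1 FPKM, by their distance in kb from the middle of the E8 locus (horizontal axis, 0 at the dotted line), with filled symbols for 2OG oxygenases and open ones for other entries. The 5 unannotated entries beside E8 lie above 0 with ABA and below 0 with NDGA, and the 4 family entries at the right lie below 0 with ABA and above 0 with NDGA (1 of them above 0 with ABA after rescaling to equal sums). E8 itself is not drawn, since it has no ratio with ABA.

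Among the entries annotated to the family, a few abundant ones moved as LeE8-6 did, while most did not. The annotation names the 2OG oxygenase superfamily in 114 entries. It does not do so for the ACC oxidase gene LeACO1, which it calls an ethylene-forming enzyme. That locus, merged with a neighbouring gene, had a mean of 2193 FPKM over the 3 groups and is not counted here. For ABA over CK, 7 of 76 entries with a ratio were at least 2-fold higher and 11 were at least 2-fold lower, where the shares over all entries were 6.70% and 10.5%. For NDGA over CK, 7 of 78 were at least 2-fold higher and 9 were at least 2-fold lower, against 8.79% and 4.13% of all entries. After rescaling to equal sums the balance was another one, with 32 higher and 2 lower for ABA and 15 higher and 7 lower for NDGA. That rescaling raises every ratio, and the shares of all entries were not counted under it. Of the entries annotated with ubiquitin, actin, elongation factor, GAPDH or tubulin, 105 of 286 were then at least 2-fold higher and 7 lower with ABA. With NDGA, 23 of 288 of them were higher and 0 lower. Without that rescaling and without E8 and LeE8-6, the lower entries with NDGA were 8 of 76. The family medians, 0.09 with ABA and -0.05 with NDGA on the log2 scale, lay close to those of all entries, and that with NDGA took the other sign after rescaling to equal sums (0.40) and without the filter on the mean (0.03).

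Among the 114 entries annotated to the family, which leave out LeACO1, E8 had the highest mean level, and LeE8-6 was exceeded by 1 further entry. That entry, Solyc02g062500.2, had 3971 FPKM with ABA, 1135 FPKM with NDGA and 2064 FPKM in CK. Its ABA over CK log2 ratio of 0.94 was near that of LeE8-6, and its NDGA over CK ratio of -0.86 was nearer to that of E8. Solyc02g062460.2, the fourth in mean level, had 902 FPKM with ABA, 647 FPKM with NDGA and 568 FPKM in CK, so that it was not lower with NDGA than in CK. Solyc01g108880.2, the fifth, had larger ratios than E4 and LeE8-6 in each comparison and than E8 with NDGA, with 1098 FPKM with ABA, 75.9 FPKM with NDGA and 333 FPKM in CK. It was 3.30-fold higher with ABA and 4.39-fold lower with NDGA than in CK, and 14.5-fold higher with ABA than with NDGA. Its neighbours on chromosome 1, Solyc01g108860.2 and Solyc01g108870.2, were looked up after these values had been seen. The 3 genes lie within 18.1 kb and have 4 entries, which were all higher with ABA (log2 ratios 0.91 to 1.72) and lower with NDGA (log2 ratios -2.53 to -1.64) than in CK. The larger entry of Solyc01g108860.2 had 55.2 FPKM with ABA, 3.50 FPKM with NDGA and 18.3 FPKM in CK. As neighbouring copies they can share reads, so their single values are uncertain too.

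The methionine sulfoxide reductases, the enzymes of the kind that E4 encodes, gave 10 entries, of which 9 had a mean of at least 1 FPKM. None of the 9 was 2-fold higher or lower with ABA than in CK, where 6.70% and 10.5% of all entries were. After rescaling to equal sums, which raises every ratio, 5 of the 9 were at least 2-fold higher. The share of all entries was not counted under that scaling. Among entries annotated with ubiquitin, actin, elongation factor, GAPDH or tubulin, 105 of 286 were then at least 2-fold higher, against 5 as deposited. As deposited, 2 of the 9 were at least 2-fold lower with NDGA, against 4.13% of all entries, E4 and methionine sulfoxide reductase B5 (Solyc01g080410.2). The B5 gene had 1454 FPKM with ABA, 218 FPKM with NDGA and 763 FPKM in CK. Its log2 ratios, 0.93 for ABA over CK and -1.81 for NDGA over CK, were closer to those of LeE8-6 than to those of E4. Reductases of the A and the B type act on different stereoisomers of the oxidised methionine. The next entries were flatter: Solyc03g093690.2 had 180 FPKM with ABA, 132 FPKM with NDGA and 156 FPKM in CK. Solyc07g062060.2 had 167 FPKM with ABA, 89.7 FPKM with NDGA and 116 FPKM in CK. Of the 9 entries, 8 lay below CK with NDGA as deposited. The median log2 ratio of the 9 was -0.22, against 0.03 over all entries, so the count includes entries close to CK. After rescaling to equal sums 2 of the 9 lay below CK, E4 at a log2 ratio of -1.31 and the B5 gene at -1.36.

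**Figure D4:**
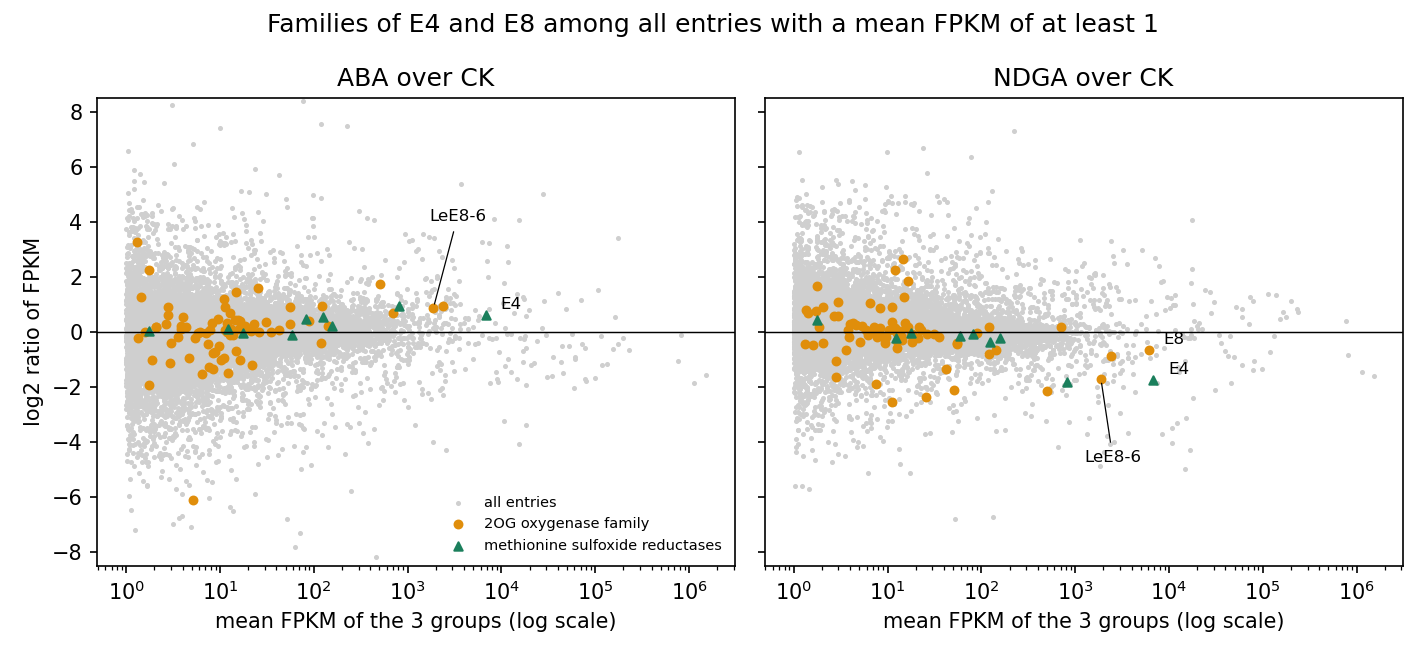
Log2 ratio of FPKM (vertical axis) against the mean FPKM of the 3 groups (horizontal axis, log scale) for ABA over CK (left) and NDGA over CK (right), with all entries in grey, the 2OG oxygenase family in orange and the methionine sulfoxide reductases in green. E4, E8 and LeE8-6 lie at the high end of the level axis, E4 and LeE8-6 at -1.76 and -1.72 with NDGA and E8 at -0.66, and E8 is missing on the left because it is listed at 0 with ABA. Outside the vertical range are 5 entries on the left and 6 on the right.

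A short list, chosen from the genes that act upstream of E4 and E8 in ripening, had the same order of groups as E4 and LeE8-6. The list is a selection and held the ripening regulators MADS-RIN, NOR, CNR, TAGL1, FUL1 and FUL2 and the ethylene genes LeACS2, LeACS4, LeACO1, NR and LeETR4, in 12 entries. It left out other ripening regulators, such as LeHB-1 and MADS1, and other genes of ethylene synthesis. An order shared within the list can follow from this choice, so the counts describe the selected genes only. Genes left out need not share it, and the ethylene sensor gene Solyc09g089610.2, also left out, did not. All 12 were higher with ABA than in CK under each scaling, and all 12 were lower with NDGA, except that both CNR entries, TAGL1 and FUL2 were above CK after rescaling to equal sums. At least 2-fold higher with ABA were 3 of 12 (FUL1, LeACS2 and LeACS4), against 6.70% of all entries, and at least 2-fold lower with NDGA were 2 of 12 (LeACS2 and LeACO1), against 4.13%. After rescaling to equal sums, which raises every ratio, these counts were 11 and 1 of 12, and no share of all entries was counted there. As deposited, the median log2 ratios of the 12 were 0.51 for ABA over CK and -0.69 for NDGA over CK, against 0.04 and 0.03 over all entries.

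Among the regulators, MADS-RIN, the MADS-box factor that the ripening inhibitor mutation disrupts and that is known to bind the promoters of many ripening genes, had 1203 FPKM with ABA, 397 FPKM with NDGA and 672 FPKM in CK. Its entry merges the locus with a second gene, Solyc05g056620.1, so the value is not of MADS-RIN alone. FUL1, a MADS-box partner of MADS-RIN, had 920 FPKM with ABA, 232 FPKM with NDGA and 446 FPKM in CK, whereas its close relative FUL2 had 205 FPKM with ABA, 152 FPKM with NDGA and 165 FPKM in CK. NOR, a NAC-domain factor needed for ripening, had 1126 FPKM with ABA, 592 FPKM with NDGA and 881 FPKM in CK. TAGL1, another MADS-box factor, had 274 FPKM with ABA, 138 FPKM with NDGA and 173 FPKM in CK. CNR, an SBP-box factor, had 474 FPKM with ABA, 324 FPKM with NDGA and 411 FPKM in CK in the larger of its entries. E4 and LeE8-6 were thus lower with NDGA, relative to CK, than any of these 6 regulators.

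Of the ethylene genes, LeACS2 and LeACS4 encode ACC synthases, which make the ethylene precursor, and LeACO1 encodes an ACC oxidase. LeACS2 had 678 FPKM with ABA, 114 FPKM with NDGA and 297 FPKM in CK, and LeACS4 had 275 FPKM with ABA, 61.3 FPKM with NDGA and 121 FPKM in CK. LeACO1, in a locus merged with a neighbouring gene (Solyc07g049550.2), had 3828 FPKM with ABA, 593 FPKM with NDGA and 2157 FPKM in CK. Its NDGA over CK log2 ratio of -1.86 was the nearest in this list to that of E4, and its ABA over CK ratio of 0.83 the nearest but one to that of LeE8-6 after MADS-RIN at 0.84. The ethylene receptors NR and LeETR4 varied less. NR had 728 FPKM with ABA, 305 FPKM with NDGA and 572 FPKM in CK, and LeETR4 had 445 FPKM with ABA, 253 FPKM with NDGA and 390 FPKM in CK. A further gene annotated as an ethylene sensor, Solyc09g089610.2, is not on the list and lies 54.9 kb from E8. It had another order, with 10.9 FPKM with ABA, 17.4 FPKM with NDGA and 23.8 FPKM in CK.

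**Figure D5:**
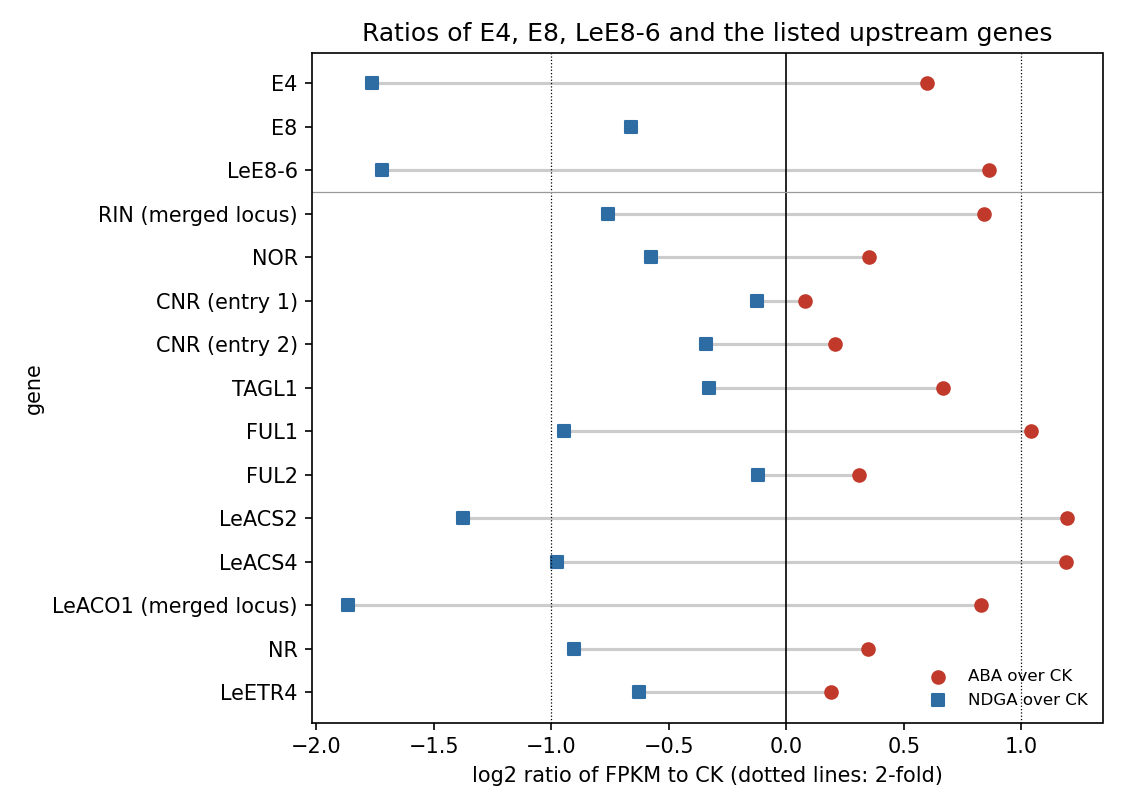
Log2 ratio of FPKM to CK (horizontal axis, dotted lines at 2-fold) for ABA (red circles) and NDGA (blue squares), with E4, E8 and LeE8-6 above the grey line and the listed upstream genes below it. Values are ratios of the authors' group means without error bars, and E8 has no point for ABA, where it is listed at 0. Every drawn ABA point is above 0 and every NDGA point below 0, although the NDGA points of both CNR entries, TAGL1 and FUL2 come above 0 after rescaling to equal sums.

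A search over 12791 single-gene entries with a mean of at least 5 FPKM gave the genes whose pair of log2 ratios to CK lay closest to each member. For E4 the nearest was Solyc01g088400.2, a fatty acid hydroxylase, with 1692 FPKM with ABA, 305 FPKM with NDGA and 1030 FPKM in CK, at a distance of 0.12 on the log2 scale. After it came Solyc10g083940.1 of the major facilitator transporters, 2 entries of Solyc02g085830.2 and the auxin efflux carrier Solyc10g080880.1, at distances up to 0.22. LeE8-6 was the 10th nearest to E4, at 0.27. For LeE8-6 the nearest was Solyc01g108560.2, an alpha/beta-hydrolase, with 531 FPKM with ABA, 82.1 FPKM with NDGA and 276 FPKM in CK, at a distance of 0.09. The auxin efflux carrier, methionine sulfoxide reductase B5 (0.11), the transporter and Solyc02g078370.1 followed, and E4 was the 11th. These distances rest on 3 values per gene, and E8 could not be placed because its ABA value is 0.

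Markers of ripe pericarp and of seed were read beside these results. PSY1, the phytoene synthase that starts carotenoid synthesis in ripening fruit, had 5451 FPKM with ABA, 1339 FPKM with NDGA and 2795 FPKM in CK, in the same order as E4. EXP1, a ripening expansin that loosens cell walls, had 720 FPKM with ABA, 652 FPKM with NDGA and 730 FPKM in CK, so that it was nearly level. The seed list was taken by the words for oleosins and seed storage proteins. It therefore held broad families too, such as lipid-transfer proteins, and immunoglobulin E-set proteins. Its 71 entries summed to 6747 FPKM with ABA, 40513 FPKM with NDGA and 11759 FPKM in CK. A single entry, of Solyc06g073660.2, had 11530 FPKM of the NDGA sum and was listed at 0 with ABA and in CK. Another entry of this gene had 0.184 FPKM with ABA, 0.859 FPKM with NDGA and 0.375 FPKM in CK. With NDGA, 27 of the 44 seed list entries with a ratio were at least 2-fold higher than in CK and 0 were lower, against 8.79% and 4.13% of all entries. With ABA, 16 of 43 were at least 2-fold lower and 5 were higher, against 10.5% and 6.70% of all entries. After rescaling to equal sums, 7 entries of the seed list were lower and 8 higher, with no share of all entries counted. Its 13 oleosin entries, the defining coat proteins of seed oil bodies, were above 0 in every group and summed to 1869 FPKM with ABA, 4754 FPKM with NDGA and 1995 FPKM in CK, and 11 of 13 were at least 2-fold higher with NDGA than in CK. The pericarp had been freed of seeds, and the part of seed RNA in the lower FPKM of E4, E8 and LeE8-6 with NDGA was not tested.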

How the data were processed

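According to the submitters' processing notes and the study's methods, the authors aligned reads to tomato SL2.40 (ITAG2.3) with TopHat2 2.0.9, computed FPKM with Cufflinks 2.1.1 and averaged both libraries of a group. The deposited FPKM are these means, 1 per entry and group. The authors' calls of regulation were not used. The 2 smaller tables of deposited FPKM (91 and 8 entries) differed from the full one in 0 entries. The number of columns of other samples was 0.

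Ratios were formed without a pseudocount and only between values above 0. Counts took entries with a mean of at least 1 FPKM and a fold of at least 2. No test was possible, and fragment numbers were not analysed here. The members and lists were chosen with earlier results of these data known. Named were the members, the upstream list, the 5 most abundant entries of each family, family entries within 200 kb, the 5 nearest patterns and abundant entries listed at 0. Others were picked after their values had been seen. RefSeq matched 2 of 3 members by synonym. Alternatives were a pseudocount of 1, 2 rescalings, no filter, single-gene entries and a level of 100 FPKM. The counting was tested on simulated data. Python 3.11.15, numpy 2.4.6, pandas 2.3.3 and matplotlib 3.10.9 were used.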

Additional observations from a re-analysis of the deposited data

How the results depend on the processing

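With a pseudocount of 1 or a median log2 ratio of 0, the 7 ratios of E4, E8 and LeE8-6 moved by less than 0.25 on the log2 scale, the tolerance used here. Rescaled to the same sum of FPKM, all kept their direction: E4 came to 1.42 for ABA over CK, -1.31 for NDGA over CK and 2.72 for ABA over NDGA, LeE8-6 to 1.68, -1.27 and 2.95 in these comparisons, and E8 to -0.21 for NDGA over CK. Of the 2OG oxygenase entries, 12 were at least 2-fold higher with NDGA than in CK without the filter on the mean and 4 with the pseudocount, against 7. Without the filter, all entries at least 2-fold higher and lower numbered 2548 and 3689 with ABA and 3885 and 1703 with NDGA, where fewer low entries are left out. Single-gene entries at least 2-fold higher with ABA numbered 848, and those lower with NDGA 562. Of entries with 1000 FPKM or more in another group, 120 of 425 were listed at 0 with ABA, 76 of 388 with NDGA and 116 of 455 in CK. At a level of 100 FPKM these were 228 of 2241, 122 of 2213 and 204 of 2418. Among single-gene entries at 1000 FPKM they were 22 of 179, 11 of 172 and 19 of 202. Of 57 alternative values, 36 stayed within the tolerance (1.5 times for counts). No paired analysis was possible because the files hold 1 mean per group, and leaving out a library was not possible for the same reason. The 0 of E8 with ABA limits that gene to the NDGA comparison.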
